A study of Mus musculus with 6 samples.

Results

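The genes described here encode the heat shock proteins and molecular chaperones measured in CD8 T cells from tumours of male and female mice. They were chosen by symbol alone, as every gene of the deposited count table whose name starts with Hspa, Hspb, Hspd, Hspe, Hsph, Hsp90, Dnaja, Dnajb, Dnajc, or Cct followed by a digit. This gave 74 of 15601 genes. The set holds 3 HSP90 genes, 10 HSP70 genes, 3 HSP110 genes, 2 genes of the mitochondrial chaperonin, 7 genes of the cytosolic chaperonin CCT, 6 genes with small heat shock protein symbols, and 4 DNAJA, 11 DNAJB and 26 DNAJC genes of the J-domain family. The rule read literally also takes in Hspbp1 and Hspbap1, which are named for binding to heat shock proteins.

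The male group and the female group each held 3 libraries, listed by the labels as biological replicates. Both sexes were wild-type C57BL/6 mice that received 500000 MB49 cells under the skin at 6 weeks of age (the age field reads 6 to 8 weeks). MB49 is a cell line from a mouse urothelial carcinoma. Tumours were collected on day 10 and digested with collagenase, and live cells carrying CD3 and CD8 but not CD4 were sorted for droplet single-cell RNA sequencing. The labels do not say whether a library pools several animals. Library numbers 1, 3 and 4 are male, and 2, 5 and 6 are female.

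Chaperones bind unfolded or partly folded proteins and release them in cycles that use ATP. HSP70 proteins take up exposed stretches of a chain, J-domain proteins deliver clients to them and speed their ATP cycle, and HSP110 proteins exchange the spent nucleotide. HSP90 acts later on kinases, receptors and other clients, and the barrel-shaped chaperonins enclose a chain while it folds, CCT in the cytosol and HSP60 with HSP10 in mitochondria. Most cells make a constitutive set (Hspa8, Hsp90ab1, CCT), the endoplasmic reticulum has its own set under the unfolded protein response (Hspa5, Hsp90b1), and heat shock factor 1 switches on an inducible set (Hspa1a, Hspa1b, Dnajb1, Hsph1). T cells raise many chaperones when they are activated and grow.

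The table held 26698 cells in 11 deposited clusters, with 25562319 to 66105318 UMIs per library (a unique molecular identifier, UMI, marks 1 captured transcript) and library medians of 6397.5 to 10114.5 UMIs per cell. Levels are given as CPM, UMIs per 1000000 UMIs of the library or group of cells. For levels per library and per cluster, the UMI total was scaled by a trimmed mean of M-values (TMM) factor. In cells set apart by their Hspa1a or Hspb1 UMIs the plain total was used, so the 2 kinds of level differ slightly in scale. A UMI is counted once at the 3' end of a transcript, so levels of different genes were compared without dividing by length. In the sums outside cluster 2, Cd8a ran from 574 to 719 CPM in male and from 662 to 790 CPM in female libraries, and Cd4 was at or under 0.559 CPM in each. Cells of cluster 6 were shallow, with a median of 1742 UMIs and 30.03% of them mitochondrial, as were those of cluster 10, with 1461 UMIs and 20.3%. In all, 84 barcodes occurred in more than 1 library, in 169 cells.

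The promoter windows below show the sequence motifs of the 2 best-known chaperone programmes. RefSeq (GRCm38.p6) windows of 300 bases, from 250 before to 50 after the transcript start, were found for 60 of the 74 genes. The heat shock element was searched as GAANNTTC or TTCNNGAA, each of which reads the same on both strands. At least 1 such match lay in the windows of 16 of the 60 genes (26.7%), against 17% of all 27025 genes with a window. The endoplasmic reticulum stress element was searched as CCAAT, any 9 bases and CCACG, on both strands. It lay in the windows of 3 of the 60 genes (Hspa5, Hsp90b1 and Dnajc3), against 0.137% of all genes. Capitals mark the matches, and overlapping matches run together. The first 3 windows belong to genes that were high together in a small number of cells, and the last pair to genes that were high together in cluster 6.
Hspa1a, chr17:34972107-34972406, minus strand: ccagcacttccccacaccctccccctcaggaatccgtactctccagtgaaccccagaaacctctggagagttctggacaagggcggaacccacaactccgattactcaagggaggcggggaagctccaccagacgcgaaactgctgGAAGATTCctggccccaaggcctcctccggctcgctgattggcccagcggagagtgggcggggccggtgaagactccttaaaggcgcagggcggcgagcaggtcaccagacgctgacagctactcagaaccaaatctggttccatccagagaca
Hsph1, chr5:149636266-149636565, minus strand: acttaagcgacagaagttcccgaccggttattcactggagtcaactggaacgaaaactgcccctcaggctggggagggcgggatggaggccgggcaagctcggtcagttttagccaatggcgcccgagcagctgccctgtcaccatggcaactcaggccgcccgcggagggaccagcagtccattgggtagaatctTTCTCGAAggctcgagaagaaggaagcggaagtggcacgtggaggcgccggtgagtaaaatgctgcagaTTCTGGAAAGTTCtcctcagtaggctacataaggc
Hspe1, chr1:55087898-55088197, plus strand: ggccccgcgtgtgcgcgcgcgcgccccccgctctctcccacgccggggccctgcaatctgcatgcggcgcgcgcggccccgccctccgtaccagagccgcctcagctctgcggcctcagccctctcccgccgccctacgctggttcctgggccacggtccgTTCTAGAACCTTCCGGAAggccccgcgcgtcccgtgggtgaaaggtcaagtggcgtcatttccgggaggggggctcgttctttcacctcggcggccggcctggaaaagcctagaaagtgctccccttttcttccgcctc
Hspa5, chr2:34771840-34772139, plus strand: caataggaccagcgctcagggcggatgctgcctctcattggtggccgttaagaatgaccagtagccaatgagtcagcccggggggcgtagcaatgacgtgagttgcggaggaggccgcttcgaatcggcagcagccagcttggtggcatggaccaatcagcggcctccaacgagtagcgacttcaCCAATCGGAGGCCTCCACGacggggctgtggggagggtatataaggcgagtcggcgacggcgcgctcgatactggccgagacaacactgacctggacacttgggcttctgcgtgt
Hsp90b1, chr10:86705395-86705694, minus strand: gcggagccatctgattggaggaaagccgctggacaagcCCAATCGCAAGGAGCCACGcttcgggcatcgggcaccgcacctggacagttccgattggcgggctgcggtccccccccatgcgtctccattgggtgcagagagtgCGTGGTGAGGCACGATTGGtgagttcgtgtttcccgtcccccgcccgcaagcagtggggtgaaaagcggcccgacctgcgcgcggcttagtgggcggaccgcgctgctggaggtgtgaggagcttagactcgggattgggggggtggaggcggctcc

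The window of Hspa1b (chr17:34959189-34959488, minus strand) differs from that of Hspa1a at 4 of 300 bases and holds the same single match. The windows of Hspd1 and Hspe1, neighbours on chromosome 1 that are read in opposite directions, share 285 bases. A match is a description of letters, and no binding was measured.

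Cytosolic HSP90 and the constitutive HSP70 were the most abundant. As the mean over clusters, Hsp90ab1 stood at 2059 CPM, Hspa8, which encodes the constitutive HSP70, at 1706 CPM, and Hsp90aa1 at 839.5 CPM. In the endoplasmic reticulum, Hspa5, which encodes BiP, stood at 555 CPM and Hsp90b1, which encodes GRP94, at 476 CPM. The mitochondrial chaperonin genes Hspe1 (HSP10) and Hspd1 (HSP60) stood at 467 and 250.2 CPM. These are the working chaperones of the 3 main folding compartments. Of the chaperonin CCT, Cct2 and Cct5 were the highest at 258 and 188 CPM, and of HSP110, Hspa4 and Hsph1 at 114 and 112 CPM. Among J-domain genes, Dnaja1 and Dnaja2 led the DNAJA group at 492 and 132 CPM. Dnajb6 and Dnajb11 led the DNAJB group at 187 and 109.7 CPM, and Dnajc15, of the mitochondrial import machinery, and Dnajc1 the DNAJC group at 298 and 157 CPM. The small heat shock protein symbols were rare in these cells. Hspb11 led them at 15.5 CPM, ahead of Hspb1 at 3.93 CPM, and Hspbp1 and Hspbap1 stood at 23.8 and 3.76 CPM. In all, 57 of the 74 genes had a mean of at least 5 CPM and are described by cluster below, and 17 did not. At the low end, Hspb2 had 0 UMIs, Hspa12a and Hspa1l had 1 each, Dnajc6 had 4 and Dnajc22 had 9.

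The comparison of males with females, which the labels set up, found no chaperone gene that passed the test over all CD8 T cells. Counts were summed per library over the cells outside cluster 2 and tested with edgeR's quasi-likelihood test, with Benjamini-Hochberg adjustment over all genes. Of the 74 genes, 66 passed the filter on low counts. None was called at an adjusted p under 0.05, against 0.0902% of all 12194 genes tested, and DESeq2 and limma-voom called none either. At an unadjusted p under 0.05 there were 5 of 66 (2 higher and 3 lower in males), against 8.36% of all genes. The log2 fold change, male minus female, was above 0 for 40 of 66, against 51.2% of all genes, at a median of 0.03 against 0.00 for all genes. Without female library 6 the count above 0 was 24 of 66 and the median -0.03.

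The abundant chaperones had overlapping levels in both sexes. Hspa8 had 1979.5, 2012 and 1998 CPM in the male libraries, against 1950.1, 2029.7 and 1747 CPM in the female libraries. Hsp90ab1 had 2662, 2466 and 2723 CPM in the male libraries, against 2512, 2400 and 2016 CPM in the female libraries. For both genes female library 6 was the lowest. The log2 fold change was 0.06 for Hspa8 (95% interval -0.14 to 0.27, edgeR adjusted p = 0.886) and 0.18 for Hsp90ab1 (95% interval -0.06 to 0.42, edgeR adjusted p = 0.697). Cct2, of the cytosolic chaperonin, had 304, 302 and 314 CPM in the male libraries, against 345, 308 and 262 CPM in the female libraries, and Dnaja1, a J-domain partner of HSP70, 491, 462 and 546 CPM in the male libraries, against 492, 525 and 381 CPM in the female libraries. Here too the groups overlapped and female library 6 was the lowest.

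The heat-inducible pair differed more between libraries of 1 sex than between the sexes. Hspa1a (chromosome 17, 34969190 to 34972156) had 93.0, 108 and 78.5 CPM in the male libraries, against 147, 53.7 and 65.7 CPM in the female libraries. Hspa1b (chromosome 17, 34956436 to 34959238) had 97.4, 102 and 77.4 CPM in the male libraries, against 155, 56.3 and 98.9 CPM in the female libraries. Female library 2 was the highest and female library 5 the lowest for both, so that the male values lay within the female range. The log2 fold changes were 0.07 (SE 0.410) and -0.17 (SE 0.371). Hspa1a and Hspa1b are near-identical copies, and how the authors' counting shared out reads between them is not given in the sources used here. Beside them, the summed level of 13 marker genes of cytokine-producing activated cells was 9748 CPM in female library 2 and 4631 to 6104 CPM in the other libraries, whose part in the result was not tested.

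Dnajb1 and Hsph1, which act with inducible HSP70 in dissolving aggregates, were more even across libraries. Dnajb1 averaged 86.5 ± 3.32 CPM in males and 82.7 ± 10.1 CPM in females, and Hsph1 105 ± 15.1 CPM in males and 109 ± 10.6 CPM in females (SD, n = 3 each). These differences were smaller than the spread between libraries.

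**Figure D1:**
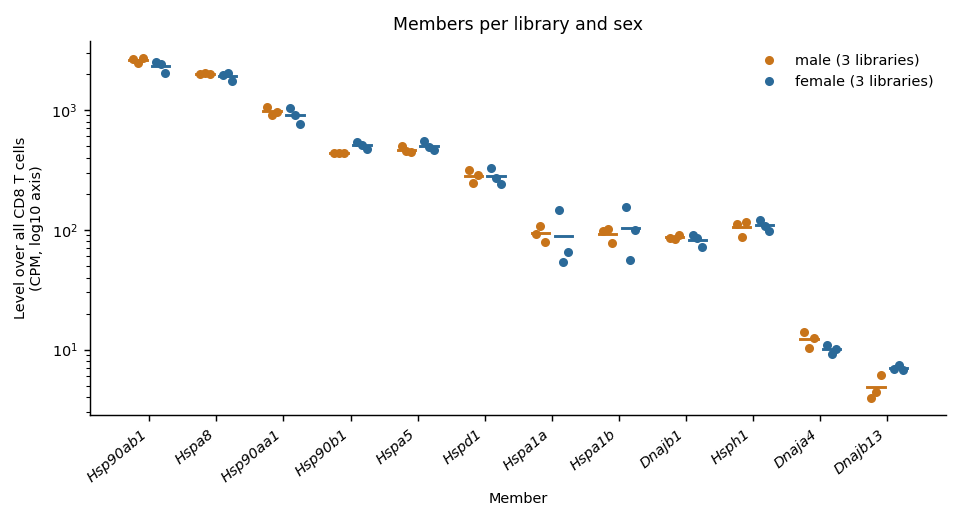
Level over all CD8 T cells outside cluster 2 in each library, in CPM on a log10 axis, for 12 chaperone genes. Points are libraries (male left, female right) and bars their means. Most genes overlap between the sexes, Hspa1a and Hspa1b spread over the widest range within females, and Hsp90b1 and Dnajb13 have each male library below each female library.

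The smallest p-values belonged to 2 genes of the endoplasmic reticulum and several rare genes. Hsp90b1 (chromosome 10, 86690209 to 86705509) had 439, 435 and 435 CPM in the male libraries, against 539, 509 and 476 CPM in the female libraries, with no overlap (log2 fold change -0.22, SE 0.0835, edgeR adjusted p = 0.503). Dnajc1, a J-domain protein of the endoplasmic reticulum membrane, averaged 135 ± 8.03 CPM in males and 158 ± 14.1 CPM in females (SD, n = 3 each, log2 fold change -0.23, edgeR adjusted p = 0.528), again without overlap. Each male library lay below each female library for 4 of the 66 genes tested, against 5.43% of all genes, and above for 3, against 8.4%.

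Both genes are highest in cluster 6, whose share of cells is given here for that reason. It was 8.23%, 6.49% and 5.62% in the male libraries, against 8.26%, 8.44% and 11.5% in the female libraries. The exact 95% binomial interval ran from 5.10% to 6.18% for the lowest (male library 4) and from 10.2% to 12.9% for the highest (female library 6). The sums tested weigh a cluster by its UMIs, and these cells were shallow. Cluster 6 held 1134099 of 51697345, 547322 of 37579957 and 796992 of 62292575 UMIs in the male sums. In the female sums it held 548570 of 39237523, 842957 of 60035322 and 609914 of 23820769 UMIs. Its part in the 2 differences was not tested. When every library was given 1 common mix of clusters, the log2 fold change of Hsp90b1 was -0.11 and that of Dnajc1 -0.16. Among cells with a mitochondrial share under 10% they were -0.22 and -0.23. That cut removed nearly all of the 2034 cells of cluster 6. It left 17, 12 and 16 of them in the male libraries, and 12, 18 and 8 in the female libraries.

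Dnajb13 (chromosome 7, 100501716 to 100514960), known in sperm flagella, had 3.99, 4.44 and 6.14 CPM in the male libraries, against 6.97, 7.49 and 6.82 CPM in the female libraries (log2 fold change -0.54, SE 0.164, edgeR adjusted p = 0.359). Its span overlaps Ucp2 on the opposite strand. Whether counting used strand is not given, so it is not known whether reads of the pair were told apart. Another 19 of the 74 genes overlap a measured gene, among them Hsp90b1, Dnajc1, Dnaja4, Hspd1 and Hspe1. Dnajc14 and Dnaja3 overlap a measured gene on the same strand, Sarnp and Vasn. On the male side, Dnajc27, a Rab-like GTPase with a J domain, had 4.18, 1.97 and 3.06 CPM in the male libraries, against 1.32, 1.58 and 2.12 CPM in the female libraries, which overlap (log2 fold change 0.90, edgeR adjusted p = 0.399). Dnaja4 averaged 12.3 ± 1.91 CPM in males and 10.0 ± 0.847 CPM in females (SD, n = 3 each, log2 fold change 0.30, edgeR adjusted p = 0.571). Hspb11, whose protein belongs to the intraflagellar transport machinery, had a log2 fold change of 0.24, Dnajc28 of 0.78 and Dnajc14 of -0.14, none passing.

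**Figure D2:**
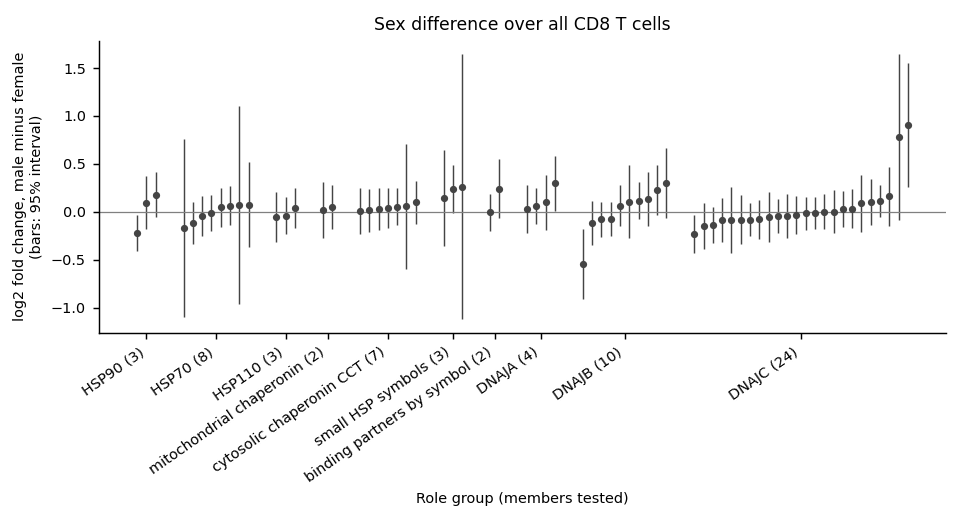
Log2 fold change, male minus female, over all CD8 T cells for the 66 genes tested, grouped by role, with bars for the 95% interval of the edgeR fit. None of the 66 was called after adjustment over all 12194 genes. The widest bars belong to genes with few UMIs and to Hspa1a and Hspa1b.

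Of the genes that work with the chaperones, none passed either. Of 81 genes on 7 lists of cochaperones, heat shock factors and folding enzymes, 76 were tested and none was called. At an unadjusted p under 0.05 there were 7 of 76 (2 higher and 5 lower in males), against 8.36% of all genes. The list of endoplasmic reticulum folding and unfolded protein response genes had 17 of 21 below 0, at a median log2 fold change of -0.13 against 0.00 for all genes. With values below 0 were Pdia4, a disulfide isomerase (-0.23), Xbp1, a transcription factor of the unfolded protein response (-0.28), Hyou1, an HSP110-like protein of the same compartment (-0.29), and Hmox1, the inducible heme oxygenase (-0.61, edgeR adjusted p = 0.231). Above 0 were Uri1, a prefoldin-like protein (0.23), the HSP70 nucleotide exchange factors Bag3 (0.31) and Bag2 (0.26), and the stress phosphatase subunit gene Ppp1r15a (0.24).

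Within single clusters, 2 J-domain genes were higher in males, both in cluster 1, whose leading genes were Crybb1, S1pr5 and Itgae and which was left unnamed. Dnaja4 (chromosome 9, 54698873 to 54716315) had 25.7, 23.8 and 21.2 CPM in the male libraries, against 13.2, 12.6 and 18.2 CPM in the female libraries. These values rest on 126, 66 and 127 UMIs in the male libraries, and 30, 54 and 31 UMIs in the female libraries. The log2 fold change was 0.73 (SE 0.183, edgeR adjusted p = 0.0291). Dnajb2 (chromosome 1, 75236406 to 75245692), a J-domain protein with ubiquitin-binding motifs, had 11.2, 9.74 and 8.50 CPM in the male libraries, against 4.82, 5.14 and 4.10 CPM in the female libraries. It rests on 55, 27 and 51 UMIs in the male libraries, and 11, 22 and 7 UMIs in the female libraries (log2 fold change 1.02, SE 0.262, edgeR adjusted p = 0.0341). For both genes each male library lay above each female library.

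These 2 calls were among 61 chaperone genes tested in cluster 1, where 3.8% of all genes were called and 1.6% were called higher in males. At an unadjusted p under 0.05 there were 9 of 61 (8 higher and 1 lower in males), against 17.3% of all genes. Both calls were lost with DESeq2 and without male library 1, male library 3, female library 2 or female library 5, with adjusted p-values of up to 0.241 for Dnaja4 and 0.191 for Dnajb2 over 10 alternatives. Both held in the other 5. Over all 11 clusters, 638 pairs of gene and cluster were tested and these 2 were called, against 0.797% of the pairs of all genes.

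The sex effect of a chaperone was not shown to differ between clusters. In the interaction test, 64 genes were tested and none was called, against 1.56% of all genes, and 4 had an unadjusted p under 0.05, against 11.3%. The lowest edgeR adjusted p-values were 0.209 for Dnaja4, 0.395 for Hspa2, 0.423 for Dnajb2 and 0.428 for Dnajc1, followed by 0.534 for Dnajb9 and 0.565 for Dnajc7. For Dnaja4 the log2 fold change ran from -0.33 in cluster 8 to 0.73 in cluster 1 and was above 0 in 8 of 9 clusters tested. For Hsp90aa1 it was above 0 in 11 of 11 clusters, from 0.04 to 0.50. The same held in 11 of 11 for Hspa8, Hsp90ab1, Dnaja1 and Dnajb4. For Hsp90b1 and Dnajc9 it was above 0 in 0 of 11. None of these genes was called in any cluster. The clusters come from the same 6 libraries, so their signs are not separate observations.

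Many chaperone genes stood at different levels in different clusters. The clusters were made from the expression of these same cells, so their levels are described without a test. The highest cluster was the same in all 6 libraries for 25 of the 57 genes described. Cluster 4 held the highest level of 20 of the 57, against 17.6% of all 8622 genes at or above 5 CPM, and cluster 6 of 14, against 20.1%. Cluster 6 also held the lowest level of 23 of the 57, against 29.9% of all genes.

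**Figure D3:**
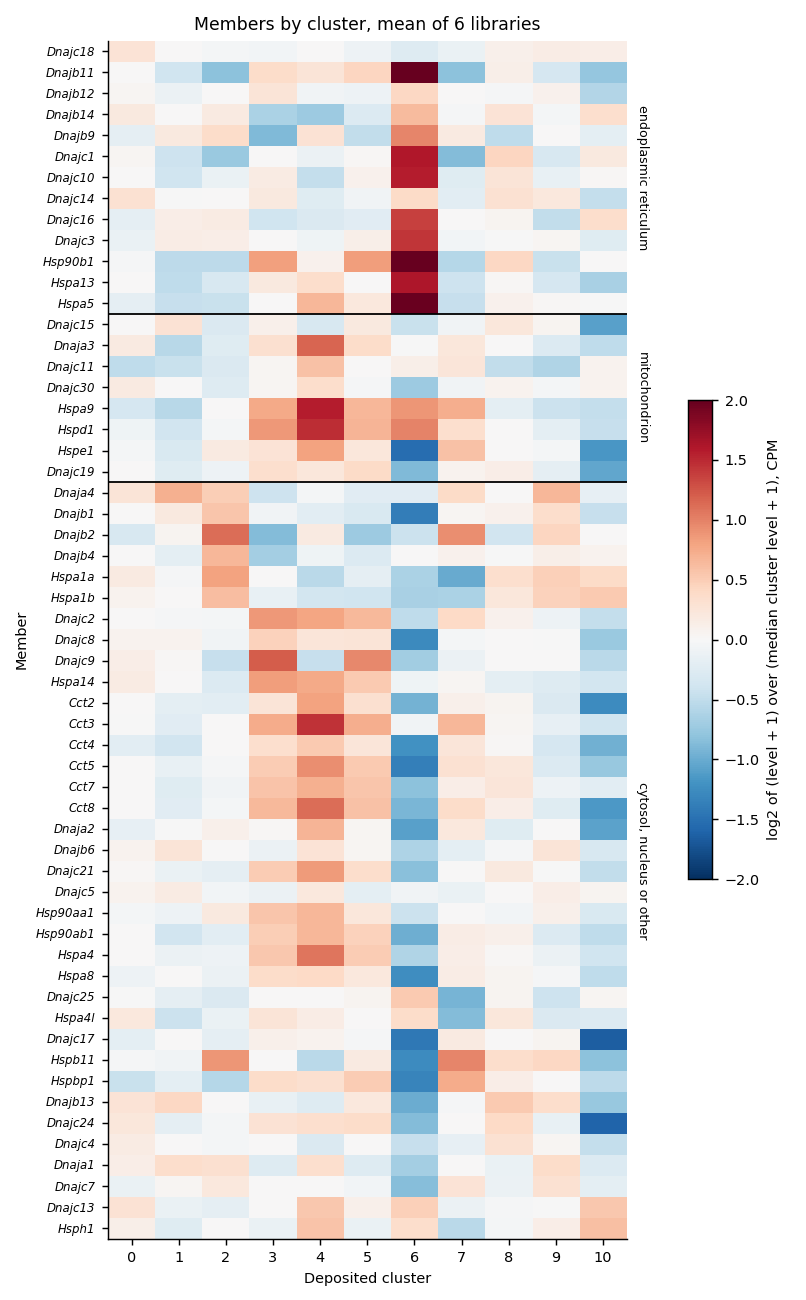
Level of the 57 chaperone genes with a mean of at least 5 CPM in the 11 clusters, as log2 of the cluster mean plus 1 over the median cluster plus 1, mean of 6 libraries. Red is above and blue below the gene's median cluster, with colours ending at 2 and -2. Of the 13 endoplasmic reticulum genes, 12 are highest in cluster 6, where most cytosolic genes are blue, and the chaperonin genes are red in cluster 4.

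Chaperones of the endoplasmic reticulum stood apart in cluster 6, a low-UMI cluster led by Gzmg, Spp1 and Gzmd that was left unnamed. Hspa5 (chromosome 2, 34771970 to 34777547) had 2052, 1710 and 1465 CPM there in the male libraries, and 1954, 1515 and 1754 CPM in the female libraries. In no other cluster did its mean exceed the 703 ± 57.0 CPM of cluster 4 (SD, n = 6 libraries). Hsp90b1 had 1798, 1378 and 1314 CPM in cluster 6 in the male libraries, and 1893, 1369 and 1992 CPM in the female libraries. The next highest were clusters 5 and 3, at 602 ± 55.2 and 598 ± 38.6 CPM. In every library both genes were highest in cluster 6.

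J-domain partners of BiP followed. Dnajb11 averaged 391 ± 97.5 CPM in cluster 6 (SD, n = 6), 4.40 times its median cluster. The others were Dnajc1 at 433 ± 59.3 CPM, Dnajc3, which also inhibits the kinase PERK, at 297 ± 48.0 CPM, Dnajc10, a disulfide reductase, at 81.9 ± 13.6 CPM, Dnajb9 at 54.7 ± 5.85 CPM and Dnajc16 at 14.1 ± 5.55 CPM. Hspa13, an HSP70-like protein of microsomes, averaged 50.7 ± 3.62 CPM there. Of 13 genes whose protein is known in the endoplasmic reticulum, 12 had their highest level in cluster 6, and the exception was Dnajc18. Their median ratio to the median of the other clusters was 3.13, against 0.917 for all genes.

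Cytosolic chaperones went the other way in the same cells. Of 36 genes of the cytosol, nucleus or other places, 20 had their lowest level in cluster 6, at a median ratio of 0.597. Hspa8 stood at 730.3 ± 116 CPM in cluster 6 and at 2261 ± 141 CPM in cluster 4, and Cct5 at 66.9 ± 14.1 CPM in cluster 6 and 332 ± 13.5 CPM in cluster 4. The mitochondrial pair split. Hspd1 stood at 373 ± 89.9 CPM in cluster 6, above its median cluster of 186 CPM, while Hspe1 was at its lowest, 158 ± 17.7 CPM against a median cluster of 454 CPM. The sorting of genes by compartment was made after levels had been seen.

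Other genes of the folding machinery showed the same split. On the list of endoplasmic reticulum folding and unfolded protein response genes, 15 of 20 were highest in cluster 6, at a median ratio of 2.98, among them Calr at 1462 CPM, Pdia6 at 595 CPM and Canx at 671 CPM. Those not highest there included Atf4, Ddit3, Ppp1r15a and Serp1. Of the HSP90 cochaperones, 9 of 14 were lowest in cluster 6, and of the chaperonin and prefoldin list, 8 of 9. With plain CPM, 11 of the 13 endoplasmic reticulum genes were highest in cluster 6, without mitochondrially encoded genes in the total 12, and with the mean of each cell's own CPM 9.

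Several other quantities move with cluster 6. Its median mitochondrial share was 30.03%, against 3.70% to 20.3% in the other clusters. The 6 T cell markers measured summed to 11430 CPM there (9344 to 15230 over libraries), against 2565 to 5976 CPM in the other clusters. The 15 myeloid markers summed to 711 CPM (625 to 959), against 88.3 to 269 CPM, with 1 of them at 0. Cluster 6 also had the highest effector sum (27980 CPM, next 17440 CPM in cluster 8). The same held for the terminally exhausted sum (9381 CPM, next 5977 CPM in cluster 0). The natural killer or innate-like (2463 CPM), MHC class II (83.5 CPM) and red blood cell (5.13 CPM) sums were highest there too. The remaining marker lists were highest in other clusters. The part of these quantities in the result was not tested.

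**Figure D4:**
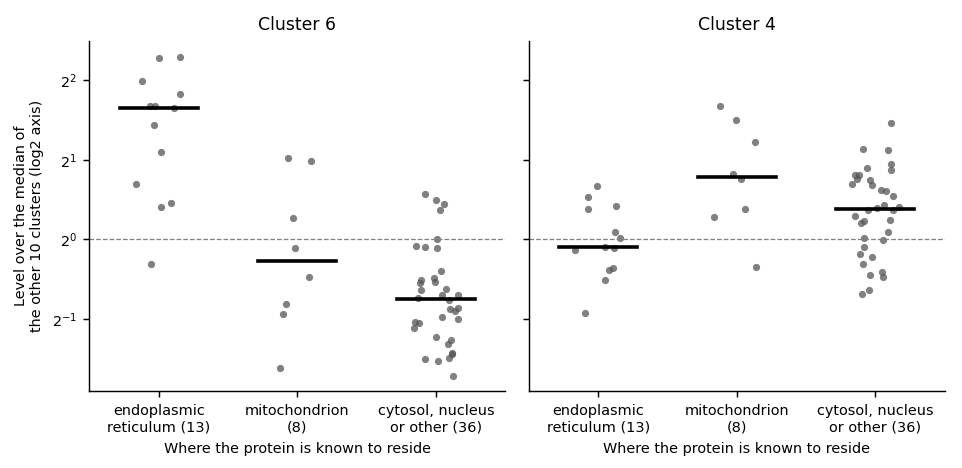
Level in cluster 6 (left) and cluster 4 (right) over the median of the other 10 clusters, on a log2 axis, for genes grouped by where the protein is known to reside. Points are genes and bars medians. In cluster 6 the medians are 3.13, 0.826 and 0.597 for the endoplasmic reticulum, mitochondrion and other genes, and in cluster 4 they are 0.939, 1.73 and 1.31.

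Cluster 4, cytokine-producing-like and led by Il2, Il3, Il13 and Ccl4, was highest for the chaperonins of both kinds. Hspd1 (chromosome 1, 55077835 to 55088243) had 589, 466 and 538 CPM there in the male libraries, and 553, 484 and 494 CPM in the female libraries, against 143 ± 8.94 CPM in cluster 1 (SD, n = 6). Hspe1 averaged 794 ± 49.1 CPM in cluster 4 and 367 ± 42.4 CPM in cluster 1. Hspa9, the mitochondrial HSP70 that drives protein import, averaged 239 ± 19.4 CPM in cluster 4 and 54.4 ± 6.38 CPM in cluster 1. Of the 8 genes of the mitochondrion, 6 were highest in cluster 4, among them the J-domain gene Dnaja3 at 39.5 ± 6.05 CPM. The 16 immediate early genes, which also respond to tissue dissociation, had their highest sum in cluster 4 as well, at 4570 CPM (3871 to 5192 over libraries), against 2114 to 3676 CPM in the other clusters, and their part in the result was not tested.

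The CCT subunit genes varied together. All 6 with at least 5 CPM (Cct2, Cct3, Cct4, Cct5, Cct7 and Cct8) were highest in cluster 4, and each was so in all 6 libraries. Cct3 had 269, 262 and 256 CPM in cluster 4 in the male libraries, and 248, 223 and 256 CPM in the female libraries, against 78.8 ± 6.27 CPM in cluster 1. Cct8 averaged 319.6 ± 20.4 CPM in cluster 4 and 125 ± 4.70 CPM in cluster 1, and Cct2 461 ± 25.3 CPM in cluster 4 and 230.1 ± 19.6 CPM in cluster 1. The median ratio of the 6 genes in cluster 4 to the other clusters was 1.90, against 1.02 for all genes. Over the 66 sums of library and cluster, with each library's mean removed, the 15 pairs of CCT genes had a median Pearson r of 0.871 (0.762 to 0.946), against 0.0995 for all 1596 pairs of the 57 genes. These sums share libraries and depth, so r is a description. The pair most alike was Cct7 with Hsp90ab1 at 0.96.

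Of the other cytosolic chaperones, both HSP90 genes, Hspa8 and Hspa4 were also highest in cluster 4, while the remaining HSP70 and HSP110 genes of the cytosol at or above 5 CPM were highest elsewhere. Hsp90ab1 stood at 3198 ± 283 CPM there against a median cluster of 2021 CPM, Hsp90aa1 at 1234 ± 119.8 against 778 CPM, Hspa8 at 2261 ± 141 against 1724 CPM, and Hspa4 at 216 ± 15.1 against 102 CPM. Hsp90ab1 and Hspa4 were highest in cluster 4 in all 6 libraries, Hsp90aa1 in 5 and Hspa8 in 4. By their means, Hspa1a and Hspa1b were highest in cluster 2, each so in 2 of 6 libraries, and Hspa14 in cluster 3, in 4 of 6. Hspa4l was highest in cluster 6 and Hsph1 in cluster 10, at 159 ± 15.6 CPM, each so in 3 of 6 libraries. The J-domain genes Dnaja2 and Dnajc21, a factor of ribosome maturation, were highest in cluster 4 in all 6 libraries, at 222 ± 10.5 and 100.3 ± 9.23 CPM.

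Cluster 3, proliferating-like, and cluster 5, led by Ung, Gins2 and E2f1, were highest for a few J-domain genes. Dnajc9, a histone chaperone, averaged 238 ± 14.9 CPM in cluster 3 and 201 CPM in cluster 5, against 74.5 ± 7.24 CPM in cluster 4 and 112 ± 19.5 CPM in cluster 0 (SD, n = 6). In all 6 libraries it was highest in cluster 3. Dnajc8, of the spliceosome, stood at 181 ± 9.65 CPM in cluster 3, and Dnajc2 and Hspa14, which work at the ribosome, at 201 ± 13.5 and 108 ± 9.17 CPM. Dnajc19, of the mitochondrial import motor, was highest in cluster 5 at 88.5 ± 3.34 CPM.

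Several rarer genes were highest in cluster 2, innate-like, or in cluster 7, naive or central memory-like. Cluster 2, led by Klra6, Klra7 and Klra9, kept the name innate-like from an earlier analysis. Its natural killer or innate-like sum was 1887 CPM, against 2463 CPM in cluster 6 and 1933 CPM in cluster 8. Its naive or central memory sum was 2869 CPM, against 3231 CPM in cluster 7. Dnajb2 averaged 15.6 ± 2.20 CPM in cluster 2 and 13.5 ± 1.38 CPM in cluster 7, against 3.17 ± 0.840 CPM in cluster 3 (SD, n = 6). Hspb11 averaged 26.4 ± 5.30 CPM in cluster 2 and 28.4 ± 5.75 CPM in cluster 7, against 13.7 ± 1.52 CPM in cluster 0. Between clusters 2 and 7 both genes differed by no more than the spread over libraries. Hspbp1, an HSP70 nucleotide exchange factor, was highest in cluster 7 at 40.1 ± 5.79 CPM. The mean of Hspa1a was highest in cluster 2, where it had 216, 220.1 and 97.0 CPM in the male libraries, and 352, 27.2 and 53.7 CPM in the female libraries, against 44.9 ± 24.4 CPM in cluster 7, where it was lowest. Female library 5 in cluster 2 thus lay below the mean of every cluster.

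A small number of cells held much of the Hspa1a RNA. In each library, the 1% of cells with the most Hspa1a UMIs held 28.1% to 52.0% of them, against 6.42% to 8.62% for Hspa8 and 8.19% to 10.6% for Hspa5. No Hspa1a UMI was seen in 81.85% of cells. Cells with at least 10 Hspa1a UMIs numbered 684 and made up 2.28%, 3.99% and 1.65% of cells in the male libraries, against 6.12%, 1.52% and 1.84% in the female libraries. The exact 95% interval of the highest, female library 2, was 5.27% to 7.06%, and that of the lowest, female library 5, 1.20% to 1.90%. These cells were deeper, with library medians of 11364 to 18401 UMIs, against 6322 to 9852 UMIs in the other cells. The number is a cut in a range: 146 cells had 10 to 12 UMIs and 274 had 7 to 9.

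Other inducible chaperones were high in the same cells, in every library. Leaving out Hspa1a, which defined the cells, 8 of 55 chaperone genes with at least 5 CPM were more than 1.5-fold higher in each of the 6 libraries, against 0.244% of all 8599 genes. These were Hspa1b, Hsph1, Dnajb1, Hsp90aa1, Dnaja1, Dnaja4, Hspd1 and Hspe1. The cells were set apart by a gene of the same list in the same cells, so this is a description with no test. Hsph1 (chromosome 5, 149614287 to 149636376) had 325, 381 and 363 CPM in these cells in the male libraries, and 324, 399.6 and 354 CPM in the female libraries. In the other cells it had 105, 68.2 and 107 CPM in the male libraries, and 93.0, 98.6 and 91.6 CPM in the female libraries. The ranges do not overlap, and the ratio of means was 3.81.

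Dnajb1, a J-domain partner of inducible HSP70, averaged 286 ± 65.7 CPM in the cells with many Hspa1a UMIs and 78.0 ± 6.89 CPM in the other cells (SD, n = 6 libraries). Hsp90aa1, the inducible HSP90, averaged 2403 ± 312 CPM in the Hspa1a cells and 859 ± 97.1 CPM in the others, and Dnaja1 883 ± 124 CPM in the Hspa1a cells and 469.8 ± 58.0 CPM in the others. The mitochondrial chaperonin was higher as well. Hspd1 averaged 465 ± 49.1 CPM in the Hspa1a cells and 264 ± 29.0 CPM in the others, and Hspe1 857 ± 59.0 CPM in the Hspa1a cells and 509.8 ± 34.6 CPM in the others. Hspa1b averaged 942 ± 224 CPM in the Hspa1a cells and 59.0 ± 16.6 CPM in the others, and as a near-identical copy it may share reads with Hspa1a. Of these 8 genes and Hspa1a, 8 had a promoter window. A heat shock element by the letters searched lay in 7 of these windows, all but that of Dnajb1. The share was 26.7% of the chaperone genes with a window and 17% of all genes with one. The 7 windows are not all separate sequences. Those of Hspa1a and Hspa1b differ at 4 of 300 bases, and those of Hspd1 and Hspe1 share 285 bases. The genes were picked from these data, and no binding was measured.

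The constitutive and endoplasmic reticulum chaperones differed less. The ratio of means was 1.39 for Hspa8, 1.47 for Hsp90ab1 and 1.22 for Hspa5, each higher in 6 of 6 libraries. None of the 12 endoplasmic reticulum genes passed 1.5-fold in each library, at a median ratio of 0.899, and none of the 6 CCT genes, at 1.06, against 0.898 for all genes. Hspa9 had a ratio of 1.000 and Dnaja2 of 0.866.

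The count depended on where the cells were set apart. With at least 5 Hspa1a UMIs it was 4, with at least 20 it was 7, with low-mitochondrial cells alone 8, and with the other cells weighted to the same clusters 9. With at least 5 UMIs that made up at least 1000 CPM of the cell, a choice that gave 601 cells with a median depth of 8358 UMIs against 7960 in the others, it was 9. The cells came from 10 of the 11 clusters, and made up 5.78% of cluster 8, 5.61% of cluster 3, 4.23% of cluster 5, 3.10% of cluster 2 and 0.264% to 2.69% of the others in which they occurred. In cluster 6 there were none at a median depth of 1742 UMIs per cell, whose part in this was not tested. Deposited cells were not screened for doublets here.

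**Figure D5:**
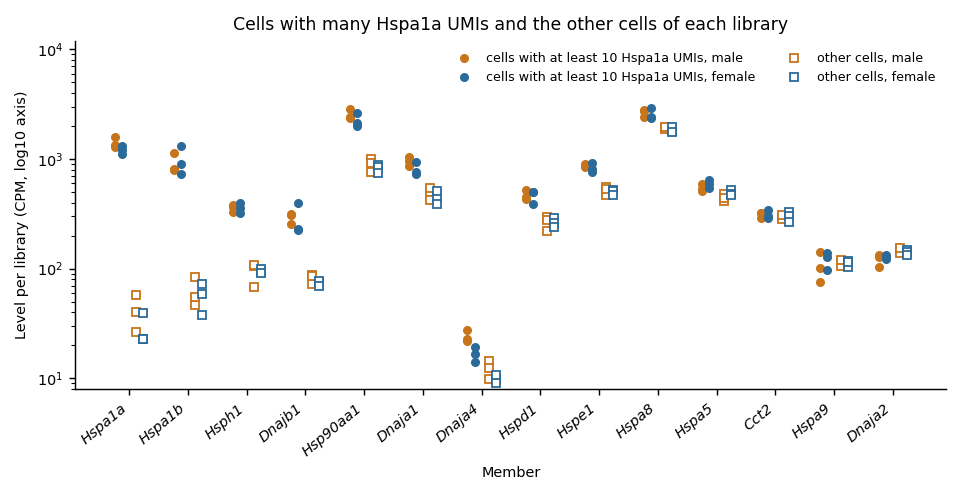
Level of 14 chaperone genes in cells with at least 10 Hspa1a UMIs (filled circles, left) and in the other cells (open squares, right) of each library, in CPM on a log10 axis, male in orange and female in blue. Hspa1a defined the cells. Hspa1b, Hsph1, Dnajb1, Hsp90aa1, Dnaja1, Hspd1, Hspe1 and the constitutive Hspa8 are higher in these cells without overlap between the cell sets. Dnaja2 is lower without overlap, and Dnaja4, Hspa5, Cct2 and Hspa9 overlap.

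Hspb1, which encodes the small heat shock protein HSP25, was carried by few cells. It had 1196 UMIs in 377 cells, and 62 cells with at least 5 of them held 59.28%. Of the 62, 38 had at least 10 Hspa1a UMIs. They came from all 6 libraries and 9 clusters. In them Hspa1a stood at 1039 CPM against 89.5 CPM in the other cells, Hsph1 at 373 against 107 CPM and Dnajb1 at 362 against 87.5 CPM. Cd8a stood at 510 CPM against 667 CPM, and the epithelial keratin genes Krt8 and Krt18 at 0 and 0.845 CPM against 1.22 and 1.38 CPM. The keratin values are near 0 in both sets of cells and too low to compare. Only these were looked at among the 8 tumour epithelial markers measured. The 62 cells were deeper, at a median of 15043.5 UMIs against 7957.5 UMIs in the other cells.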

How the data were processed

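CD8 T cells sorted from MB49 tumours of 3 male and 3 female libraries were profiled by droplet single-cell RNA sequencing. The deposited table holds the authors' raw UMI counts per gene and cell. The library number is part of each cell's name, and a second deposited table gives the authors' sex label and cluster number of each cell. Per the submitters' processing notes the tools were Cell Ranger and Seurat and the build mm10, with versions not given in the sources used here. The annotation and the strand used in counting are not given there either.

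Counts were summed per library over cells outside cluster 2, called all CD8 T cells, and per library and cluster. Sums over all CD8 T cells held 23820769 to 62292575 UMIs. Males were compared with females with edgeR 4.0.16 (quasi-likelihood, robust, TMM, its default filter on low counts, Benjamini-Hochberg adjustment over all genes, threshold 0.05) in R 4.3.3. An interaction term tested whether the sex effect differed between clusters. The fits were tested on simulated data. The labels call the libraries biological replicates without saying from how many animals. The p-values therefore weigh the difference between the sexes against the spread between these libraries. Levels per library and per cluster are TMM-scaled CPM, and those in the Hspa1a and Hspb1 cells are plain CPM. Clusters were named from marker lists, except cluster 2, whose name came from an earlier analysis. No doublet caller was run. Intervals of shares are exact binomial and cover counting error only. Gene spans come from GENCODE M21.

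Alternatives were DESeq2 1.42.0, limma-voom (limma 3.58.1), DESeq2 size factors in edgeR, no filter on low counts, all clusters, cells with a mitochondrial share under 10%, the same cluster mix in every library, shared barcodes left out, and each library left out.

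The members and lists were chosen with earlier results of these data known. Genes were named by rule: the 2 highest of each role, up to 4 per direction of smallest p over all CD8 T cells, called genes per cluster, the 12 with the largest ratio of highest to median cluster, the 6 of smallest interaction p, and 4 pathway genes per direction. Other genes named in the report were chosen after their values were seen.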

Additional observations from a re-analysis of the deposited data

How the results depend on the processing

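No chaperone gene was called over all CD8 T cells under any of 14 alternatives, and the log2 fold changes of the 8 genes named there kept their direction and stayed short of the threshold in 111 of 111 values. The interaction gave 0 calls in all 10 of its alternatives. The 2 calls within clusters were the least stable result. DESeq2 called 0 of 638 pairs, no filter on low counts gave 4 of 762, and leaving out 1 library gave 0 to 8. There were 0 calls without male library 1 or male library 3, 1 without female library 5, 4 without female library 6, and 8 without female library 2, none of which was Dnaja4 or Dnajb2 in cluster 1. The cause was not tested. With other definitions of the Hspa1a cells, chosen after seeing the data, 4 to 9 genes passed 1.5-fold in each library, with 4 at a minimum of 5 Hspa1a UMIs. Of the 13 endoplasmic reticulum genes, 9 to 12 were highest in cluster 6 over 3 ways of scaling, also chosen after seeing the data. No paired analysis was possible because the library numbers in the deposited tables cannot be tied to the replicate numbers in the labels. Genes with few UMIs, such as Dnajb2 with 7 to 55 UMIs per library in cluster 1, are limited by depth.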

Other observations

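Genes outside the chaperone families were also higher in the cells with at least 10 Hspa1a UMIs. Apart from Hspa1a, 21 of 8599 genes were more than 1.5-fold higher in all 6 libraries, and 8 of these were chaperone genes. The others were Rhob, Jun, Ddit4, Phlda1, Ndrg1, Sap30, Bnip3, Bag3, Klf6, Ccdc117, Mt2, Slc2a1 and Klf2, named after their values were seen. Jun, a subunit of the transcription factor AP-1, averaged 316 ± 120.2 CPM in these cells and 100.5 ± 35.3 CPM in the others (SD, n = 6 libraries). Ddit4, an inhibitor of mTORC1 signalling, averaged 108 ± 27.4 CPM in these cells and 37.0 ± 5.94 CPM in the others, and Bnip3, a mitophagy receptor, 125 ± 50.3 CPM in these cells and 51.6 ± 15.8 CPM in the others. Bag3, which joins HSP70 to the small heat shock proteins, averaged 20.5 ± 5.71 CPM in these cells and 6.96 ± 1.34 CPM in the others, and was 1 of 10 HSP70 cochaperones on the list to pass 1.5-fold in each library.

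Of 16 immediate early genes, which also respond to tissue dissociation, 4 were higher in the Hspa1a cells in all 6 libraries (Jun, Klf6, Ier3 and Jund) and 2 were lower in all 6. Of all 8599 genes with at least 5 CPM, 381 were higher and 2477 were lower in all 6 libraries. Klf6 averaged 447 ± 55.4 CPM in these cells and 237 ± 11.8 CPM in the others, Ier3 90.6 ± 19.1 CPM in these cells and 63.6 ± 17.9 CPM in the others, and Jund 1001 ± 124 CPM in these cells and 747 ± 87.0 CPM in the others. Atf3 and Dusp1 were higher in 5 of 6. Fos averaged 107 ± 84.1 CPM in these cells and 49.0 ± 28.1 CPM in the others, also higher in 5 of 6 libraries. Ier2 averaged 162 ± 35.5 CPM in these cells and 229 ± 16.7 CPM in the others and Dusp2 245 ± 39.2 CPM in these cells and 300.4 ± 39.8 CPM in the others, both lower in the Hspa1a cells in 6 of 6 libraries. Egr1 averaged 58.1 ± 19.4 CPM in these cells and 65.0 ± 9.71 CPM in the others. These cells were set apart by their own Hspa1a counts, so the values are descriptions with no test.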
